A study of Rattus norvegicus with 12 samples.

Results

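GS cells, rat cardiac fibroblasts immortalized with virally delivered Sall4 and Gata4, were compared with RCF, the parental rat cardiac fibroblasts they came from. The comparison took the GS and RCF columns of the gene count table, 3 libraries in each group and 6 of the 12 libraries in the series. GS cells were labelled immortalized, undifferentiated and non treated, and RCF cells were labelled WT, control and non treated. The other libraries held GS cells labelled as under cardiomyocyte differentiation (GS_diff1) or cardiomyocyte/endothelial differentiation (GS_diff2). They entered the low-count filter, the scaling and the shared estimate of spread. Beyond that, they were used to follow genes that differed between GS and RCF. Both groups were cultured heart cells, and the labels name no strain, sex, age, passage or vector. The labels describe every sample, RCF included, under the same protocol of viral Sall4 and Gata4, so whether RCF received an empty virus cannot be told from them. The series text calls the libraries biological replicates, but does not say whether they came from separate animals, infections or dishes, and p-values measure the spread between these libraries.

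Cardiac fibroblasts are stromal cells that make and remodel the collagen matrix of the heart, and in culture they divide only for a limited time. Sall4, a DNA-binding protein of early embryos, germ cells and fetal tissues, recruits the NuRD corepressor, a histone deacetylase complex. Gata4 is a zinc finger factor that binds GATA sequences and acts in heart, endoderm and gonad development, and it is also present in some fibroblasts of the adult heart.

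Libraries held 16255682 to 22763665 counts in GS and 18977872 to 23117864 counts in RCF. Of 32545 genes in the table, 14399 passed the filter on low counts. Levels are given in CPM, counts relative to the library total, after TMM scaling, which corrects for differences in library composition. Counts were spread over fewer genes in GS, where 570 to 573 genes held 50% of a library, against 690 to 694 genes in RCF. Mitochondrial genes took 0.242 to 0.246% of GS counts and 2.18 to 2.26% of RCF counts, which moved with every comparison below, and its part in them was not tested.

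The introduced factors checked the labels. Sall4 was at 246, 255 and 238 CPM in GS, and had 0 counts in all 3 RCF libraries. Gata4 was at 603, 589 and 594 CPM in GS, and at 203, 206 and 210 CPM in RCF. Both were higher in every GS library than in any RCF library. Counts from viral and endogenous copies cannot be separated in this table. The fibroblast markers summed to 73800 to 75000 CPM in GS and 49400 to 52400 CPM in RCF. Within these sums, fibronectin (Fn1) alone averaged 29825 CPM in GS and 7700 CPM in RCF. Of the 14 markers, all tested, 4 were beyond 2-fold higher in GS and 4 lower, against 11.4% and 7.81% of all tested genes. Single fibroblast markers moved in both directions. Pdgfra, the platelet-derived growth factor receptor alpha, was at 679, 723 and 661 CPM in GS, against 96.2, 103 and 92.8 CPM in RCF. Tcf21, a transcription factor that marks cardiac fibroblasts from the epicardium, was at 0.138, 0.405 and 0.644 CPM in GS, against 19, 18.6 and 17.9 CPM in RCF. The small proteoglycan decorin (Dcn) averaged 1.00 CPM in GS and 32.8 CPM in RCF, while lumican (Lum) averaged 116 CPM in GS and 11.2 CPM in RCF.

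Most tested genes differed by some amount, and about 1 in 5 differed by more than 2-fold in either direction. edgeR's quasi-likelihood test with Benjamini-Hochberg adjustment called 10262 genes at an adjusted p under 0.05, which was 71.3% of those tested. Of these, 5039 were higher in GS (35% of tested genes) and 5223 were lower in GS (36.3%). Against a threshold of a 2-fold change, 2772 genes passed (19.3%), with 1648 higher in GS (11.4%) and 1124 lower in GS (7.81%). The remaining genes were not all shown to be equal. The 95% interval of the change lay within 1.2-fold either way for 1489 genes, or 10.3% of those tested. The table marks 81 of them as transcription factors. The most abundant of these factors included Tsc22d1, a transforming growth factor beta response gene, at 675, 667 and 690 CPM in GS and 752, 757 and 745 CPM in RCF. Junb, a subunit of the AP-1 factor, was at 430, 418 and 416 CPM in GS and 364, 362 and 376 CPM in RCF. The mRNA decay factor Zfp36l1 was at 287, 287 and 269 CPM in GS and 273, 276 and 268 CPM in RCF, with libraries that overlapped.

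**Figure D1:**
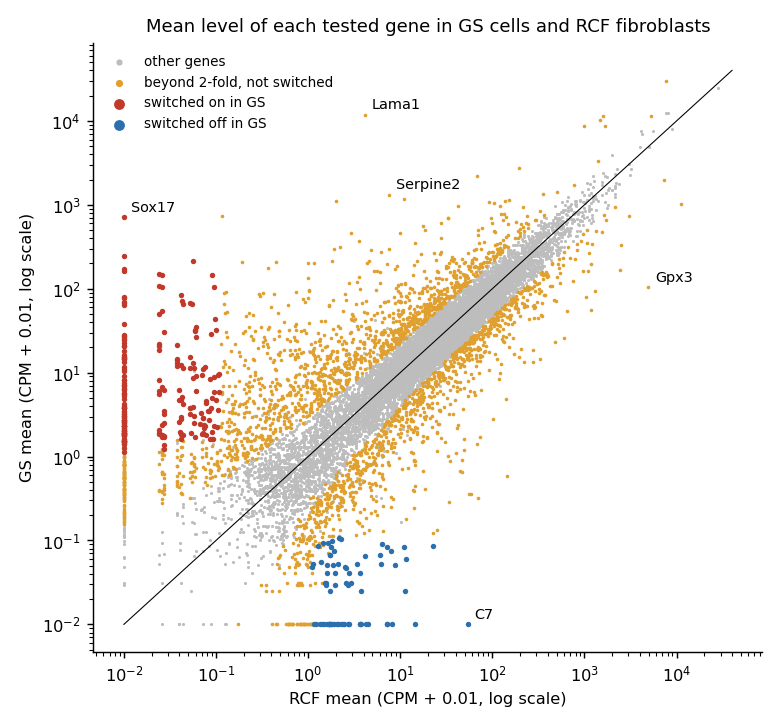
Mean level of each of 14399 tested genes in GS (vertical) and RCF (horizontal), in CPM plus 0.01 on log scales. The line marks equal levels, red points are the 212 genes switched on in GS, blue points are the 73 switched off, and Lama1 stands far above the line at 11848 CPM in GS against 4.09 CPM in RCF.

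Genes were sorted into classes of mean level with borders at 0.1, 1, 10 and 100 CPM and a class for 0, to show how far expression moved. Of 13248 genes that reached 1 CPM in at least 1 group, 9882 (74.6%) stayed in the same class. A shift of 1 class was about as frequent upward in GS (1385 genes, 10.5%) as downward in GS (1462 genes, 11%). Larger shifts were uneven, with 387 genes (2.92%) at least 2 classes higher in GS and 132 genes (0.996%) at least 2 classes lower in GS. At the extreme, 68 genes reached 10 CPM or more in GS from under 0.1 CPM in RCF, and 6 genes did the converse. By mean level over both groups, the share of tested genes beyond 2-fold was 33.5% for genes with a mean under 1 CPM, 28.3% from 1 to 10 CPM, 12.8% from 10 to 100 CPM and 15.4% from 100 to 1000 CPM. Among the 84 genes at 1000 CPM and over it was 25%, with 11 higher in GS and 10 lower in GS. A gene with a mean under 1 CPM could pass the low-count filter through 1 group alone. The part of the filter in the share of that class was not tested.

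Levels of different genes were compared per kilobase of gene length. In GS the highest were Sparc, a collagen-binding matrix protein, at 6088 CPM per kb, the translation elongation factor Eef1a1, collagen Col1a1, Ctgf, ferritin light chain Ftl1 and fibronectin Fn1. In RCF they were Ftl1 at 13118 CPM per kb, the mitochondrial cytochrome oxidase subunit Mt-co1, Eef1a1, Col1a1, Sparc and Gpx3. Fn1 was at 30072, 30764 and 28638 CPM in GS, against 7555, 7824 and 7722 CPM in RCF. Ctgf, a secreted matricellular protein, was at 10230, 10057 and 10480 CPM in GS, against 1461, 1480 and 1479 CPM in RCF. Both were higher in all 3 GS libraries, by log2 1.95 ± 0.02 for Fn1 and 2.80 ± 0.02 for Ctgf (fitted change ± SE). Col1a1 differed much less, at 24511, 23488 and 25111 CPM in GS and 28596, 28553 and 27774 CPM in RCF. Together Col1a1 and Fn1 took 5.14 to 5.23% of GS counts and 3.65 to 3.74% of RCF counts.

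The largest rise among genes present in every library was in Lama1, the laminin alpha 1 chain, which belongs to the first laminin of embryonic basement membranes. Lama1 (Rnor_6.0 chr9:115916907-116042123, plus strand) was at 11642, 12551 and 11349 CPM in GS, against 4.10, 4.05 and 4.12 CPM in RCF. By CPM it ranked 5 in GS and 10641 in RCF. The fitted change was log2 11.50 ± 0.04 (SE, n = 3 libraries a group, adjusted p = 5.59e-41 for a change beyond 2-fold, edgeR). Its level was 3731 ± 48.6 CPM in GS_diff1 and 3573 ± 30.2 CPM in GS_diff2 (SD, n = 3 each).

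The other genes of the basement membrane were looked at after the value of Lama1 was seen, so their counts describe the family and are no separate evidence. Laminins are trimers of an alpha, a beta and a gamma chain, and Lama1, Lamb1 and Lamc1 encode the chains of laminin-111. Lamb1 was at 8565, 8897 and 8565 CPM in GS, against 982, 995 and 977 CPM in RCF. Lamc1 was at 11414, 11949 and 11255 CPM in GS, against 1597, 1620 and 1593 CPM in RCF. No GS library overlapped an RCF library for either gene. The fitted changes were log2 3.14 ± 0.02 for Lamb1 and 2.85 ± 0.02 for Lamc1. Per kilobase of gene length, the 3 chains were at 1121 (Lama1), 1537 (Lamb1) and 1511 CPM per kb (Lamc1) in GS, and at 0.387, 174 and 210 CPM per kb in RCF. The gene lengths are those of the deposited table.

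Of 9 laminin chain genes tested, 5 were beyond 2-fold higher in GS, Lama1 among them, and 2 were beyond 2-fold lower in GS. The shares of all tested genes were 11.4% and 7.81%. Lamb3, a chain of the laminin of epithelial basement membranes, also rose but was low, at 11.3 ± 1.03 CPM in GS and 0.883 ± 0.0557 CPM in RCF (SD, n = 3 each). Lama2, the alpha chain of muscle and stroma, was at 8.49, 9.26 and 7.60 CPM in GS, against 114, 114 and 127 CPM in RCF. Lama5, an alpha chain of mature basement membranes, fell by 1.2 on the log2 scale. Collagen IV also differed by chain. The main chains Col4a1 and Col4a2 averaged 12495 and 6961 CPM in GS, against 8059 and 4179 CPM in RCF, with neither past the 2-fold threshold. Col4a5 averaged 140 CPM in GS and 498 CPM in RCF, and Col4a4 averaged 12.8 CPM in GS and 44.2 CPM in RCF. Nid1, a linker of laminin to collagen IV, was at 1202, 1239 and 1181 CPM in GS and 1225, 1239 and 1223 CPM in RCF, with libraries that overlapped. Its relative Nid2 averaged 56.4 CPM in GS and 151 CPM in RCF.

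The promoters of the laminin-111 chains are shown because these genes moved together, and were chosen after their values were seen. They are RefSeq sequences of the rat build GRCr8, from 250 bases before to 50 bases after the gene's start, read 5′ to 3′ on the gene's strand. Capitals mark a GATA motif (AGATAA or TGATAA, either strand).
Lama1: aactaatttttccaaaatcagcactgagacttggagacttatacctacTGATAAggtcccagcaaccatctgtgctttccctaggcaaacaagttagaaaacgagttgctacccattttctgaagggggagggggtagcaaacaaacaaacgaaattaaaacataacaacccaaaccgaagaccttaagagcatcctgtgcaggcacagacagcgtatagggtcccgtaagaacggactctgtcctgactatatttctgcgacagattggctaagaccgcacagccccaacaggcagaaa
Lamb1: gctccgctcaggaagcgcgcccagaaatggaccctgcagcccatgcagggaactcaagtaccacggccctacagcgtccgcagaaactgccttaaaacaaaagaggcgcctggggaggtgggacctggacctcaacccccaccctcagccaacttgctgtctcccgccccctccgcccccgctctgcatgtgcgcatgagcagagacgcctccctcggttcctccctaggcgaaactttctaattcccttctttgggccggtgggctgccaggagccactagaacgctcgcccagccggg
Lamc1: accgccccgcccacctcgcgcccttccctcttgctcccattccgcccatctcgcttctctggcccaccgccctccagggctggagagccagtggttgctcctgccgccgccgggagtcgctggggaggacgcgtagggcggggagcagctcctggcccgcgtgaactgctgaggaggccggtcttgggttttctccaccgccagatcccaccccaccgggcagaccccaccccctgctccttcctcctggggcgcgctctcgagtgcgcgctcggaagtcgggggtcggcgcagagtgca

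These windows lie at chr9:115139298-115139597 on the plus strand for Lama1, chr6:53562846-53563145 on the plus strand for Lamb1 and chr13:68051937-68052236 on the minus strand for Lamc1. The Lama1 window holds 1 GATA motif, which begins 202 bases before the start, and the windows of Lamb1 and Lamc1 hold none. The Lama1 window was also the poorest in G and C, at 45.7%, against 63.7% for Lamb1 and 71.7% for Lamc1. A GATA motif was in 18% of the 128 promoters matched to genes switched on in GS and in 17.6% of the 34 matched to genes switched off. It was in 9.73% of the 9889 promoters matched to tested genes and in 18.6% of all 27457 promoters in the table. The motif AATATT, of the AT-rich kind that zinc fingers of Sall4 bind, was in 3.12% of promoters switched on, 8.82% of promoters switched off, 2.97% of promoters of tested genes and 7.89% of all promoters. Base composition moved with these shares, with a median G and C content of 57.7% for genes switched on, 52.5% for genes switched off, 61% for tested genes and 52.3% for all promoters. None of the 7 matched promoters among the 15 most abundant switched-on genes and factors held a GATA motif. A match or its absence says nothing of binding.

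Other large rises among genes present in every library were in genes of several kinds. Srgn, the core protein of the secretory granule proteoglycan serglycin, was at 1135, 1086 and 1124 CPM in GS, against 2.75, 1.44 and 1.85 CPM in RCF. Serpine2, a secreted inhibitor of thrombin and urokinase, was at 1341, 1280 and 1321 CPM in GS, against 6.59, 7.90 and 8.19 CPM in RCF. Fmod, the collagen-binding proteoglycan fibromodulin, was at 1207, 1144 and 1179 CPM in GS, against 10.8, 10.6 and 11.2 CPM in RCF. For all 3 genes the lowest GS library lay far above the highest RCF library, with fitted changes of log2 9.09 ± 0.08, 7.45 ± 0.05 and 6.76 ± 0.04. The same rule named the growth factor binding protein Igfbp2, the heparan sulfate sulfotransferase Hs3st1, acetylcholinesterase Ache and the cell polarity protein Pard6b, with log2 changes from 7.32 ± 0.07 (Igfbp2) to 6.87 ± 0.08 (Pard6b).

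The largest falls among genes present in every library were smaller than the largest rises. Gpx3, the secreted glutathione peroxidase, was at 103, 103 and 106 CPM in GS, against 4912, 4831 and 4891 CPM in RCF. Maoa, a mitochondrial enzyme that breaks down monoamines, was at 55.4, 56.3 and 54.9 CPM in GS, against 1179, 1166 and 1160 CPM in RCF. Angptl4, a secreted inhibitor of lipoprotein lipase, was at 24.6, 23.3 and 21.2 CPM in GS, against 477, 489 and 475 CPM in RCF. All 3 GS libraries lay below all RCF libraries for each, with changes of log2 -5.55 ± 0.05, -4.40 ± 0.05 and -4.38 ± 0.05. Igfbp6, the oxidized LDL receptor Olr1, the hexosamine enzyme Gfpt2, Parm1 and the guidance factor Sema3d also fell, by log2 -5.17 ± 0.10 (Igfbp6) to -4.38 ± 0.19 (Sema3d).

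A gene was counted as switched on in GS when its mean was under 0.1 CPM in RCF and it reached 1 CPM in each GS library, and as switched off for the converse. These rules use the compared levels themselves, so the genes are described without a test, and each passed the low-count filter through the group in which it was high. There were 212 genes switched on and 73 switched off, which was 1.66% and 0.57% of the 12808 genes at 1 CPM in every library of GS or of RCF, called expressed genes below. Sall4, which was introduced into GS cells, is among the 212 and among the transcription factors counted with them. Just inside the rule, Otogl had a lowest GS library of 1.01 CPM, and just outside it Hesx1 had 0.984 CPM. On the silent side, Shank1 averaged 0.0973 CPM in RCF inside the rule and Car2 averaged 0.102 CPM in RCF outside it. Among genes switched off, Pkhd1l1 averaged 0.0964 CPM in GS inside the rule and Fam227a averaged 0.101 CPM in GS outside it.

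Genes switched on reached higher levels than genes switched off had held. The median was 4.26 CPM in GS for genes switched on, of which 67 reached 10 CPM and 11 reached 100 CPM. For genes switched off the median was 2.15 CPM in RCF, with 6 at 10 CPM or more and none at 100 CPM. Together, genes switched on took 0.426 to 0.431% of GS counts, and genes switched off took 0.0323 to 0.0325% of RCF counts. Of the 212 genes switched on, 199 were protein coding, and 99 had 0 counts in all RCF libraries. Of the 73 switched off, 69 were protein coding, and 30 had 0 counts in all GS libraries. Genes that the table marks as transcription factors made up 33 of those switched on (15.6%) and 7 of those switched off (9.59%). They were 7% of the expressed genes. The marking is the table's own and includes Lin28a.

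Developmental regulators stood among the most abundant genes switched on. Sox17, an endoderm and endothelial transcription factor, was at 720, 695 and 715 CPM in GS and at 0 counts in RCF, which is at least 5040-fold higher in GS against a floor of 3 counts per library. Pitx1, a homeobox factor of hindlimb and pituitary, was at 152, 143 and 159 CPM in GS, with 1 count in the RCF libraries together. Sall1, a relative of Sall4 that acts in the kidney, was at 114, 112 and 99.0 CPM in GS, with 1 count in RCF, at 0.0422 CPM in 1 library. For these genes the RCF libraries were at or next to 0 while all GS libraries lay close together. Further factors were Zscan10, a factor of pluripotent cells at 21.5, 22.4 and 22.0 CPM in GS, and Zic2, a neural patterning factor at 23.0, 18.1 and 20.7 CPM in GS. Zscan10 reached 0.0422 CPM in 1 RCF library, and Zic2 had 0 counts in RCF.

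Genes of growth arrest, vitamin metabolism and signalling were switched on beside them. Cdkn1c, an imprinted cyclin-dependent kinase inhibitor, was at 219, 201 and 221 CPM in GS, against 0.0422, 0.0513 and 0.0473 CPM in RCF. Gulo, the enzyme of the last step of vitamin C synthesis in rodents, was at 147, 143 and 145 CPM in GS and had 1 count in RCF. Cyp26a1, which degrades retinoic acid, was at 147, 145 and 144 CPM in GS, against 0.0422, 0.103 and 0.0946 CPM in RCF. Stra6, the cell surface receptor for retinol uptake, and Cyp26c1, which lies beside Cyp26a1, were also switched on, at 72.2 ± 0.502 and 11.9 ± 1.28 CPM in GS (SD, n = 3), and were singled out after their values were seen. The potassium channel Kcnk1, the cilium protein gene Ribc2 and the adenosine A1 receptor Adora1 averaged 105, 105 and 84.0 CPM in GS.

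**Figure D2:**
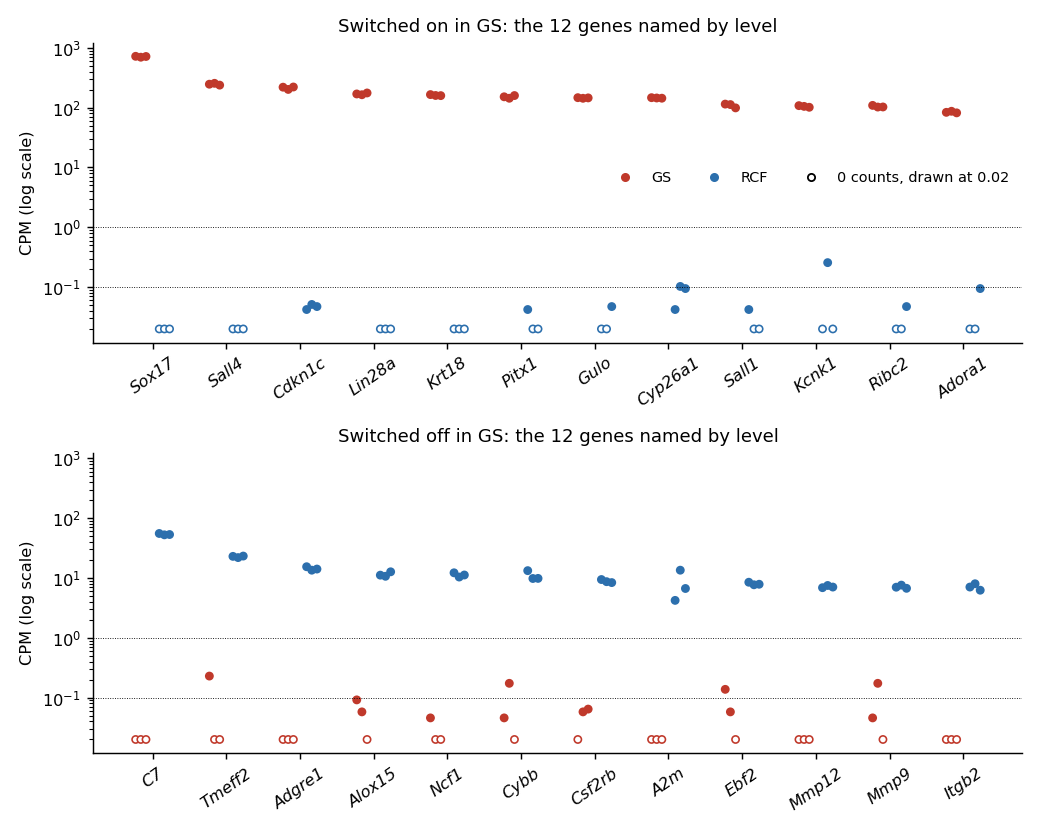
Level in each library of the 12 most abundant genes switched on in GS (top) and switched off in GS (bottom), in CPM on a log scale, GS left in red and RCF right in blue. Open points drawn at 0.02 are libraries with 0 counts, dotted lines mark 0.1 and 1 CPM, and A2m spreads from 4.22 to 13.5 CPM in RCF.

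Several epithelial genes were among those switched on. They were picked after their values were seen, and their number among the 212 was not counted. The tight junction claudins Cldn6, Cldn7 and Cldn4 were at 79.3 ± 3.67, 14.5 ± 1.69 and 3.74 ± 1.05 CPM in GS and at 0 counts in RCF. They were 3 of the 8 expressed genes that the table assigns to the claudin family domain, against 1.66% of all expressed genes switched on. The keratins Krt18, Krt7 and Krt2 were switched on too, 3 of 15 expressed genes with an intermediate filament domain, against the same 1.66%. Lad1, an anchoring filament protein, was at 59.0, 65.6 and 66.0 CPM in GS, and Pkp3, a desmosome protein, was at 19.8, 14.8 and 19.5 CPM in GS, both with 0 counts in RCF. Ripk4, Elf3 and Ovol2, regulators of epithelial differentiation, averaged 24.5, 15.4 and 8.10 CPM in GS and had 0 counts in RCF. Epcam, an epithelial adhesion molecule, averaged 30.8 CPM in GS with 1 count in RCF.

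Heart genes were also among those switched on, and were picked out after their values were seen. Myl3, the ventricular essential myosin light chain, was at 55.5, 55.3 and 50.2 CPM in GS, against 0, 0 and 0.0473 CPM in RCF. Alpk3, a kinase of heart muscle, was at 70.9, 68.8 and 61.2 CPM in GS, against 0.127, 0 and 0 CPM in RCF. Mybpc3, cardiac myosin binding protein C, was at 19.8, 14.5 and 14.0 CPM in GS and at 0 counts in RCF. The pacemaker channel Hcn4, the factors Hand1, Nkx2-5 and Isl1 and the coactivator Myocd averaged 9.61, 12.4, 3.38, 3.23 and 3.73 CPM in GS. A list of 9 defining cardiomyocyte markers summed to 3.86 to 4.28 CPM in GS and 15.7 to 17.3 CPM in RCF, and Myh7 and Myl2 had 0 counts in both groups. Most of that difference was in Tnnt2, cardiac troponin T, which averaged 1.96 CPM in GS and 15.1 CPM in RCF. Without it the list summed to 1.93 to 2.26 CPM in GS and at most 1.27 CPM in RCF. Pln, the regulator phospholamban, was beyond 2-fold higher, at 1.38 CPM in GS and 0.182 CPM in RCF.

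Homeodomain genes changed in both directions. This family and the Wnt family below were picked after their counts were seen, so the counts are no separate evidence. Of 49 expressed genes with this domain, 10 were switched on and 3 were switched off, against 1.66% and 0.57% of all expressed genes. Those switched on were Pitx1, Isx, Lhx1, Pax7, Lhx4, Isl1, Nkx2-5, Pax3, Barx2 and Hoxc13, and those switched off were Hoxb3, En1 and Hoxb2. Hoxb3, a positional factor, was at 0.0459, 0.0579 and 0.0644 CPM in GS, against 4.14, 4.16 and 4.16 CPM in RCF. Its neighbour Hoxb2 had 0 counts in GS and was at 1.18, 1.80 and 1.04 CPM in RCF. The Wnt ligands Wnt7b, Wnt7a and Wnt10b were switched on, at 35, 3.75 and 3.20 CPM in GS, 3 of 6 expressed genes of that family, against 1.66% of all expressed genes.

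Some switched genes lay side by side in the genome. The longest runs of neighbouring protein-coding genes switched in the same direction held 3 genes each. They were Ptk6, Srms and RGD1564340 (Rnor_6.0 chr3:176698305-176725837) and Lin28a, Aim1l and Cd52 (chr5:152230343-152324469). Pairs included Kcnq1 with Cdkn1c, Cyp26c1 with Cyp26a1 and Zic5 with Zic2 among genes switched on, and Hoxb3 with Hoxb2 and Ccl3 with Ccl4 among genes switched off. Overlapping transcripts can share reads, since the use of strand in counting is not given in the sources used here.

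Several leukocyte genes were among those switched off, including Ptprc and Adgre1 of the marker list. Cybb and Ncf1, subunits of the phagocyte NADPH oxidase, were at 0.0459, 0.174 and 0 CPM and at 0.0459, 0 and 0 CPM in GS, against 13.3, 9.80 and 9.84 CPM and 12.2, 10.4 and 11.2 CPM in RCF. Itgb2, the leukocyte integrin beta chain, had 0 counts in GS and was at 7.05, 8.01 and 6.25 CPM in RCF. Mmp12, the macrophage elastase, had 0 counts in GS and was at 6.88, 7.49 and 7.05 CPM in RCF. All RCF libraries held these transcripts at low levels, and GS libraries held almost none. Csf2rb, Alox15, Mmp9, Slc11a1, Rac2, Itgam, Fcer1g, Il1b and the chemokine Ccl3 were switched off as well. The macrophage and leukocyte marker list summed to 23.8 to 27.2 CPM in GS and 106 to 114 CPM in RCF. Most of the GS sum was Cd14, a lipopolysaccharide receptor, which was called higher at 23.2 CPM in GS and 17.3 CPM in RCF. Without it the list summed to 1.48 to 2.6 CPM in GS and 89 to 95.5 CPM in RCF. Of its 8 tested members, 7 were beyond 2-fold lower in GS, against 7.81% of all tested genes, and Ptprc, Adgre1, C1qa, C1qb and Tyrobp had 0 counts in GS. In these bulk samples, fewer cells of a type and less RNA per cell cannot be told apart.

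Other genes switched off had varied roles. C7, a complement component, had 0 counts in GS and was at 55.4, 52.6 and 53.2 CPM in RCF. Tmeff2, a membrane protein, was at 0.229, 0 and 0 CPM in GS and at 23.0, 21.9 and 23.2 CPM in RCF. Ebf2, a factor of stromal and fat precursor cells, was at 0.138, 0.0579 and 0 CPM in GS, against 8.49, 7.70 and 7.85 CPM in RCF. The RCF libraries lay close together for these genes, unlike A2m, a protease inhibitor with 0 counts in GS and 4.22, 13.5 and 6.67 CPM in RCF. The call of A2m was lost when only the 6 GS and RCF libraries entered the fit (adjusted p = 0.0531, edgeR). The mesothelial list, which holds Bnc1, Wt1 and Upk3b, summed to 44.7 to 48.7 CPM in GS and 115 to 120 CPM in RCF, with 6 of 8 tested members beyond 2-fold lower in GS, against 7.81% of all tested genes. The other members were higher in GS, with Krt19 at 25.4 CPM in GS and 0.415 CPM in RCF. Msln, mesothelin, was at 6.45 CPM in GS and 2.77 CPM in RCF, called at any size but not beyond 2-fold (adjusted p = 1.11e-09 and 0.0611, edgeR). Bnc1 was the list member switched off.

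Genes switched on in GS were mostly still expressed in GS cells under either differentiation treatment. Of the 212, 169 were at 1 CPM or more in every GS_diff1 library, 164 in every GS_diff2 library and 146 in both. Those silent under a treatment were few, 3 in GS_diff1 and 5 in GS_diff2, and Utf1 and Il9r were silent in both. Of the 73 genes switched off, 51 were silent in GS_diff1, 53 in GS_diff2 and 45 in both. AY172581.16 was expressed again in GS_diff1, and Pkhd1l1 and Ccl4 in GS_diff2. The median level of genes switched on was 4.73 CPM in GS_diff1, 4.24 CPM in GS_diff2, 4.26 CPM in GS and 0.0141 CPM in RCF. Single genes did shift, such as Krt18, at 726 ± 3.45 CPM in GS_diff1, 149 ± 1.35 CPM in GS_diff2 and 161 ± 3.49 CPM in GS. Lin28a was at 260 ± 5.49 CPM in GS_diff1, 35.2 ± 2.61 CPM in GS_diff2 and 170 ± 5.80 CPM in GS (SD, n = 3 each).

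**Figure D3:**
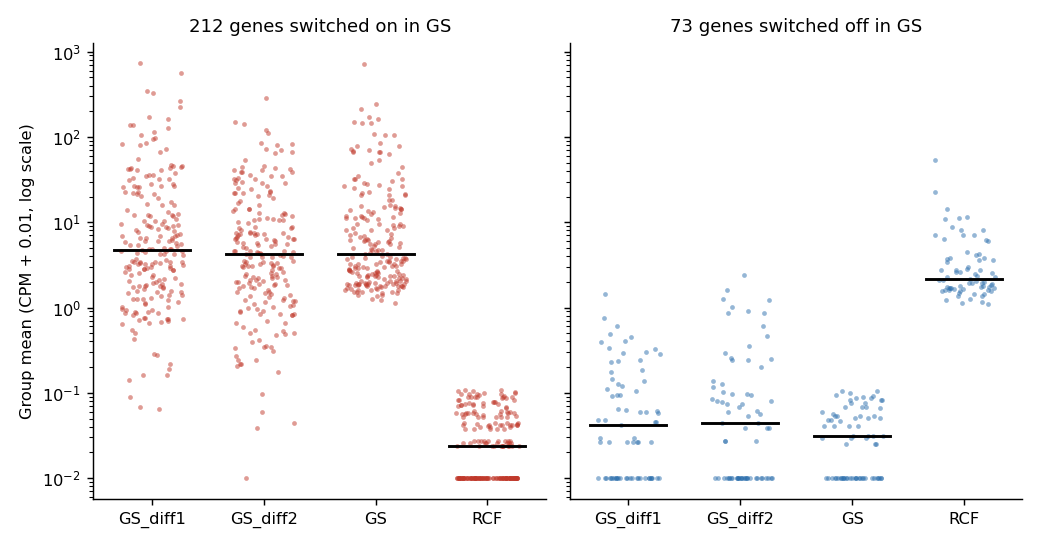
Mean level of the 212 genes switched on in GS (left) and the 73 switched off (right) in each of the 4 groups, in CPM plus 0.01 on a log scale, with a bar at the median. Medians of genes switched on are 4.73 CPM in GS_diff1, 4.24 CPM in GS_diff2, 4.26 CPM in GS and 0.0141 CPM in RCF, and medians of genes switched off are 0.0317 CPM in GS_diff1, 0.0346 CPM in GS_diff2, 0.0215 CPM in GS and 2.15 CPM in RCF.

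Lists of genes for pathways outside the usual lineage markers were then counted. The lists were chosen with earlier results of these data known, so their counts and order describe them and are no separate evidence. Members that never passed the low-count filter are left out, so counts are over tested members. The filter took in all 4 groups. A member silent in GS or RCF was thus tested only because another group, GS_diff1 and GS_diff2 included, expressed it. Up to 3 members a direction were named by size of change, and Gpc3, Mdk, Osr1, Flt1, Ntrk2, Epha2, Epha7, Agtr1a, Hsd11b1, Timp1 and Arntl were added after their values were seen. The NuRD corepressor, Sall4's known partner, was counted first. Of its 12 tested members, 9 were called higher in GS and 2 lower, against 35% and 36.3% of all genes, but 1 was beyond 2-fold, against 19.3% of all genes. That was the histone chaperone Rbbp7, at 631, 611 and 618 CPM in GS, against 184, 183 and 182 CPM in RCF. The median of the list was log2 0.45, against -0.03 over all tested genes. Polycomb genes, which encode a repressive chromatin system, had 9 of 23 called higher in GS and 9 lower, against 35% and 36.3%. Pcgf5 alone among them was beyond 2-fold, at 67.2, 77.5 and 71.4 CPM in GS, against 10.5, 9.85 and 9.51 CPM in RCF.

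Oncofetal genes, active in fetal tissue and again in some tumours, had the largest share beyond 2-fold of the 18 pathway lists. Of its 14 tested members (17 were found), 10 were beyond 2-fold higher in GS with none lower, against 11.4% and 7.81% of all genes. The RNA-binding protein gene Igf2bp1 was at 64.7, 68.7 and 63.9 CPM in GS, against 0.0845, 0.0513 and 0 CPM in RCF. Plagl1, an imprinted zinc finger factor, was at 15.4, 14.9 and 15.8 CPM in GS, against 0.507, 0.821 and 0.946 CPM in RCF. The glypican Gpc3 and the growth factor midkine (Mdk) averaged 65.3 and 117 CPM in GS, and 3.32 and 6.01 CPM in RCF. Their GS libraries did not overlap RCF.

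Splicing regulators of tissue-specific programs had 7 of 20 tested members beyond 2-fold higher in GS and 1 lower, against 11.4% and 7.81% of all tested genes. Esrp1, an epithelial splicing regulator, was at 68.8, 65.0 and 68.8 CPM in GS and 0 counts in RCF. Its relative Esrp2 was at 14.6, 15.2 and 12.9 CPM in GS, against 1.73, 2.72 and 1.70 CPM in RCF. Mbnl3, a muscleblind protein, averaged 35.8 CPM in GS and 3.39 CPM in RCF. Rbfox1, a splicing factor of neurons and muscle, went the other way, with 0 counts in GS and 2.96, 2.41 and 2.84 CPM in RCF.

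Patterning transcription factors had 25 of 54 tested members beyond 2-fold higher in GS and 8 lower, against 11.4% and 7.81% of all tested genes. Of the 54, 10 were switched on, including Zic2, Zic5, Eomes, Pax1, Pax3, Pax7 and Tbx1. Osr1, a factor of embryonic mesenchyme, was at 274, 264 and 267 CPM in GS, against 22.8, 25 and 22.7 CPM in RCF. Tbx20 and Tbx18, T-box factors of heart and epicardium, were lower, at 7.55 and 29.6 CPM in GS, and at 33.3 and 88.4 CPM in RCF. The libraries of each group were separate for these genes. The count of 8 was 4 by DESeq2 and 5 without GS replicate 1 or without GS replicate 2.

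Nuclear receptors, ligand-controlled transcription factors, had 7 of 35 tested members beyond 2-fold higher in GS and 3 lower, against 11.4% and 7.81% of all tested genes, so the lower count was near that of all genes. Nr6a1, the germ cell nuclear factor, was at 15.7, 15.6 and 14.7 CPM in GS, against 1.18, 1.13 and 1.23 CPM in RCF. Nr1h4, the bile acid receptor, was at 0.184, 0.463 and 0.258 CPM in GS, against 8.11, 8.47 and 8.75 CPM in RCF. Pparg, a regulator of fat cells, averaged 9.32 CPM in GS and 2.57 CPM in RCF. Nr4a1, an immediate early receptor, averaged 40.1 CPM in GS and 13.8 CPM in RCF. Hnf4a, a liver and gut factor, had 0 counts in RCF and averaged 1.85 CPM in GS.

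Receptor tyrosine kinases had 10 of 33 tested members beyond 2-fold higher in GS and 5 lower, against 11.4% and 7.81% of all tested genes. Kit, the receptor for stem cell factor, was at 121, 119 and 119 CPM in GS, against 3.72, 3.80 and 2.70 CPM in RCF. Ret, the receptor for glial cell line-derived factors, was at 31.8, 34.4 and 30.9 CPM in GS, against 1.01, 0.667 and 0.521 CPM in RCF. The gap between groups was wide for both, with fitted changes of log2 5.13 ± 0.08 (Kit) and 5.44 ± 0.18 (Ret). Flt1, a receptor for vascular endothelial growth factor, and Ntrk2, a neurotrophin receptor, averaged 354 and 199 CPM in GS, and 14.4 and 7.11 CPM in RCF. Of 10 listed endothelial markers, 9 were found, and Pecam1 was not. Those found summed to 28.3 to 29.4 CPM in GS and 35.2 to 38.7 CPM in RCF. Most of each sum was Tek and Egfl7, which averaged 12.2 and 12.8 CPM in GS, and 13.0 and 21.3 CPM in RCF. Kdr had 0 counts in GS and averaged 0.577 CPM in RCF, and Emcn had 0 counts in both groups. Of 5 tested endothelial markers, Erg was the member beyond 2-fold, at 1.52 CPM in GS and 0 counts in RCF. Fgfr4, a fibroblast growth factor receptor, was at 18.5, 15.3 and 14.5 CPM in GS, against 0.338, 0.359 and 0.710 CPM in RCF. Ddr1, a collagen receptor, averaged 130 CPM in GS and 357 CPM in RCF. Ror1, a Wnt receptor, was lower at 7.83 CPM in GS and 23.7 CPM in RCF, and its call was lost without GS replicate 1, without GS replicate 3 or without RCF replicate 2 (adjusted p = 0.0753, 0.0867 and 0.0683, edgeR).

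Eph receptors and ephrins, which act at cell contacts, had 13 of 16 tested members called higher in GS and 7 beyond 2-fold, against 35% and 11.4% of all genes. Ephb3 was at 405, 398 and 417 CPM in GS, against 28.6, 25.3 and 28.9 CPM in RCF. Epha1 had the largest change, at 33.2, 31.8 and 32.1 CPM in GS, against 0.633, 0.872 and 0.331 CPM in RCF. Epha2 averaged 260 CPM in GS and 26.8 CPM in RCF, and the ligand Efna1 averaged 39.6 CPM in GS and 1.02 CPM in RCF. Epha7 was the member beyond 2-fold lower, at 0.271 CPM in GS and 1.39 CPM in RCF. Its call was lost by DESeq2 and voom and without GS replicate 2, GS replicate 3 or RCF replicate 1 (adjusted p = 0.297, 0.0769, 0.141, 0.1 and 0.0977).

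Hedgehog pathway genes had 4 of 17 tested members beyond 2-fold higher in GS and 2 lower, against 11.4% and 7.81% of all tested genes. Gli1, a factor that is itself a pathway target, was at 6.19, 5.21 and 5.41 CPM in GS, against 0.127, 0 and 0.189 CPM in RCF. Ptch1, the receptor and also a target, was at 33.4, 37.1 and 32.4 CPM in GS, against 9.12, 9.55 and 11.7 CPM in RCF. Both stood above RCF in all GS libraries, as did the coreceptor Boc, which averaged 95 CPM in GS and 19.4 CPM in RCF. The ciliary regulators Kif7 and Gpr161 were the lower members, at 18.9 and 4.2 CPM in GS and 43.8 and 10.9 CPM in RCF. DESeq2 lost both calls (adjusted p = 0.0796 for Kif7 and 0.25 for Gpr161), and Gpr161 was also lost by limma-voom, with no filter, without GS replicate 1 and without RCF replicate 2 (adjusted p = 0.0943, 0.057, 0.142 and 0.197).

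Targets of YAP and TEAD, which respond to cell tension and density, were changed in both directions. Of 21 tested, 4 were beyond 2-fold higher in GS and 3 lower, against 11.4% and 7.81% of all tested genes. Ctgf and F3, the clotting initiator tissue factor, rose, with F3 at 477, 481 and 506 CPM in GS, against 104, 100 and 109 CPM in RCF. Nt5e, an ectonucleotidase that makes adenosine, was at 28.9, 24.8 and 28 CPM in GS, against 127, 125 and 135 CPM in RCF. The phosphatase Ptpn14 averaged 112 CPM in GS and 44.9 CPM in RCF, and Myof, a membrane repair protein, averaged 275 CPM in GS and 604 CPM in RCF. Igfbp3 was lower too, at 19 CPM in GS and 43.4 CPM in RCF. That call was lost by DESeq2 (adjusted p = 0.268) and, in edgeR, without GS replicate 1, GS replicate 2, RCF replicate 1 or RCF replicate 3 (adjusted p = 0.121, 0.112, 0.0833 and 0.0776).

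Receptors for vasoactive and lipid mediators had 12 of 32 tested members beyond 2-fold higher in GS and 5 lower, against 11.4% and 7.81% of all tested genes. F2rl1, a protease-activated receptor, was at 29.9, 28.9 and 35.3 CPM in GS, against 0.380, 0.513 and 0.521 CPM in RCF. F2r, the thrombin receptor, was at 110, 116 and 114 CPM in GS, against 312, 302 and 309 CPM in RCF. The lysophosphatidic acid receptor Lpar3 averaged 11.4 CPM in GS and 0.212 CPM in RCF, and the endothelin receptor Ednrb averaged 3.59 CPM in GS and 26.1 CPM in RCF. The angiotensin receptor Agtr1a averaged 187 CPM in GS and 64.8 CPM in RCF. The natriuretic peptide receptor Npr1 averaged 6.76 CPM in GS and 22.0 CPM in RCF. Receptors of this list thus differed in direction.

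Steroid and prostaglandin genes had 5 of 23 tested members beyond 2-fold higher in GS and 5 lower, against 11.4% and 7.81% of all tested genes. Srd5a1, which makes dihydrotestosterone, was at 277, 262 and 278 CPM in GS, against 5.28, 6.98 and 6.10 CPM in RCF. Hsd17b2, which inactivates estradiol and testosterone, was at 28.5, 26.4 and 25.8 CPM in GS and at 0 counts in RCF. Hsd11b1, which regenerates active glucocorticoid, averaged 46.7 CPM in GS and 201 CPM in RCF. Among prostanoid receptors, Ptger3 was at 91.3, 93.5 and 89.9 CPM in GS, against 0.169, 0 and 0.189 CPM in RCF. The prostacyclin receptor Ptgir was at 0.321, 0.810 and 1.22 CPM in GS, against 7.77, 8.06 and 6.81 CPM in RCF.

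Hyaluronan and proteoglycan genes had 4 of 36 tested members beyond 2-fold in each direction, near the 11.4% higher and 7.81% lower of all tested genes. Has2, the main hyaluronan synthase of development, was at 12.1, 11.3 and 10.6 CPM in GS, against 0.127, 0 and 0 CPM in RCF. Acan, the cartilage proteoglycan, averaged 21.8 CPM in GS and 0.348 CPM in RCF. The large proteoglycan Vcan was at 43.4, 49.1 and 40.6 CPM in GS, against 288, 287 and 286 CPM in RCF. Sulf1, an extracellular heparan sulfatase, averaged 48.1 CPM in GS and 342 CPM in RCF. Connexins and pannexins had 2 of 10 tested members beyond 2-fold higher in GS and 1 lower, near the 11.4% and 7.81% of all tested genes. The gap junction gene Gja1 averaged 403 CPM in GS and 176 CPM in RCF.

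The list of secreted factors of senescent cells moved in both directions, with 8 of 30 tested members beyond 2-fold higher in GS and 9 lower, against 11.4% and 7.81% of all tested genes. Il6, an inflammatory cytokine, was at 12.8, 11.6 and 12.6 CPM in GS, against 1.18, 1.08 and 0.615 CPM in RCF. Cxcl12, a stromal chemokine, was at 52.9, 54.6 and 53.4 CPM in GS, against 655, 648 and 658 CPM in RCF. Igfbp5 was at 0.826, 0.405 and 0.708 CPM in GS, against 44.8, 52.2 and 43.0 CPM in RCF. The urokinase receptor Plaur averaged 44.7 CPM in GS and 13.4 CPM in RCF. Timp1, an inhibitor of matrix proteases, averaged 83.4 CPM in GS and 361 CPM in RCF. Mmp12 and Il1b of this list are leukocyte genes in the group described above.

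Ribosome biogenesis and lysosome genes leaned in opposite directions. Of 24 ribosome biogenesis genes, 19 were called higher in GS and 2 lower, against 35% and 36.3% of all genes, and 4 were beyond 2-fold higher, against 11.4% of all genes. Nop58, a nucleolar protein of small RNA particles, was at 230, 226 and 240 CPM in GS, against 63.6, 60.4 and 66.0 CPM in RCF. Gar1 and Wdr43, other nucleolar genes, averaged 30.9 and 139 CPM in GS, and 8.23 and 50.5 CPM in RCF. The list's median was log2 0.36. Of 27 lysosome and autophagy genes, 20 were called lower in GS and 5 higher, against 36.3% and 35% of all genes, and 4 were beyond 2-fold lower, against 7.81%. Lipa, the lysosomal acid lipase, was at 58.6, 58.7 and 60.5 CPM in GS, against 168, 176 and 182 CPM in RCF. The enzyme Gusb and the cholesterol carrier Npc2 averaged 31.1 and 234 CPM in GS, and 117 and 583 CPM in RCF. The median was log2 -0.58. Tfeb, a factor that activates lysosomal genes, was higher, at 37.0, 35.6 and 33.0 CPM in GS, against 11.4, 11.4 and 10.9 CPM in RCF.

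Circadian clock genes had 6 of 16 tested members beyond 2-fold higher in GS and none lower, against 11.4% and 7.81% of all tested genes. Per2, a repressor of the clock loop, was at 43.1, 40.7 and 40.7 CPM in GS, against 12.3, 13.1 and 12.6 CPM in RCF. Ciart, another repressor, averaged 10.5 CPM in GS and 2.35 CPM in RCF. Npas2 and Arntl, which encode activators of the loop, averaged 22.4 and 54.0 CPM in GS, and 6.92 and 17.3 CPM in RCF. Among these named genes, activators and repressors were higher together. At any size of change, 9 of the 16 tested members were called higher in GS and 4 lower, against 35% and 36.3% of all tested genes. The time of harvest is not in the labels.

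**Figure D4:**
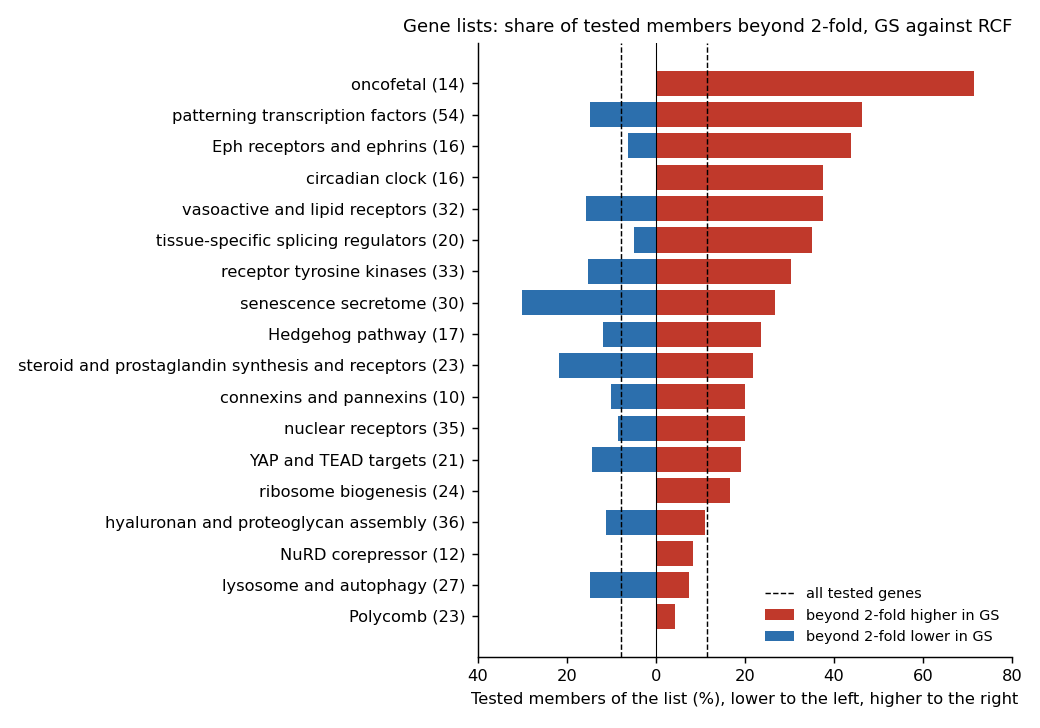
Share of tested members beyond 2-fold in 18 gene lists, higher in GS to the right in red and lower in GS to the left in blue, with the number tested in brackets. Dashed lines mark the shares of all tested genes, 11.4% higher and 7.81% lower, and the oncofetal list reaches furthest right with 10 of 14.

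Chromosomes were compared by the median change of their tested genes. Chromosome 15 stood highest among the autosomes, with a median log2 change of 0.19 over 389 genes, 0.22 above that of all genes. By GS library it was 0.183, 0.227 and 0.212 above all genes (log2 of CPM plus 0.5, against the RCF mean). Bins of 20 Mb on other chromosomes reached similar values, up to 0.32 above all genes on chromosome 2, and 83 of 134 bins lay within 0.1 of all genes. On the mitochondrial chromosome the median was log2 -2.80, with 19 of 22 genes beyond 2-fold lower in GS, against 7.81% of all tested genes. Y-linked genes were present in both groups, with Ddx3y at 73.3, 73.9 and 72.2 CPM in GS and 79.6, 82.7 and 85.8 CPM in RCF. Of the 4 tested genes of the Y-linked list (Ddx3y, Kdm5d, Eif2s3y and Uty) none passed the 2-fold threshold by edgeR's test. Over the 6 tested genes of chromosome Y, 1 was beyond 2-fold higher in GS, against 11.4% of all tested genes.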

How the data were processed

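Total RNA was taken with the RNeasy kit and sequencing libraries came from the Ovation RNA-seq System v2 (NuGEN), per the labels' protocols. The authors deposited whole-number read counts per gene, with no normalization. The submitters' processing notes name Bowtie 0.12.2 and the builds mm8 and Rnor_6.0, without roles, and the counting program is not given in the sources used here. Gene positions are those of the deposited table (Rnor_6.0).

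Counts were scaled by TMM, filtered with filterByExpr and fitted in edgeR 4.0.16 (R 4.3.3) with a term for each of the 4 groups over all 12 libraries. The contrast was GS minus RCF, by the two-sided quasi-likelihood test with robust dispersion (biological coefficient of variation 9.72%) and by its test against a 2-fold change, adjusted by Benjamini-Hochberg over 14399 genes at 0.05. Changes are log2 with SE. In most sentences about lists, rose, fell, higher and lower beyond 2-fold refer to that second test. A fold against a group with 0 counts sets the silent group to 3 counts in each library, a floor for counting error alone, and with 1 to 3 counts levels are given without a fold. The scripts were tested on simulated data with known changes.

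Genes were named by rule. It took the 12 most abundant genes switched each way, the most abundant transcription factors switched each way, the 8 largest changes each way among genes at 1 CPM in all 6 libraries, and the 6 highest levels per length in each group. It also took the 6 most abundant factors within 1.2-fold, and up to 3 members a direction in each list, beyond 2-fold and at 5 CPM in the higher group. Other names were chosen after values were seen, and some genes that the rule takes are not reported here. The comparison, the lists and the markers were chosen with earlier results of these data known. Of 547 listed symbols, 535 were found, including 5 by a synonym that RefSeq lists. Promoters were matched by gene identifier or symbol. Any 2 libraries of a group differed by 5.27 to 7.48 times sampling noise (chi-square per degree of freedom), so none was counted as a repeat. Alternatives were DESeq2 1.42.0, limma-voom (limma 3.58.1), other scalings, no filter, fewer libraries, a replicate block and other borders for switched genes.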

Additional observations from a re-analysis of the deposited data

How the results depend on the processing

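The counts of genes called and of genes beyond 2-fold moved by less than 1.5 times under all alternatives tried. Genes beyond 2-fold numbered 2360 by DESeq2, 2474 by limma-voom and 2983 with no filter, and leaving out 1 library gave 2680 to 2745. With library totals alone, 4383 genes were higher and 6024 lower in GS, and the median of all genes moved to log2 -0.126. The replicate numbers did not meet the rule for pairing, since deviations of same-numbered libraries correlated at 0.0969, 0.0733 and 0.115, although each library correlated best with its own number. With a replicate block over the 6 libraries, 9902 genes were called and 2583 were beyond 2-fold, against 10028 and 2616 without the block.

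Counts of switched genes depended on the borders. Requiring 0 counts in the silent group left 99 genes switched on and 30 switched off, while 163 genes were switched off with a border of 0.5 CPM in the expressing group and 33 with 2 CPM. Leaving out 1 library gave 217 to 227 switched on and 75 to 82 switched off. Of 252 named genes, 7 changed their call under some alternative (A2m, Ror1, Gpr161, Kif7, Igfbp3, Epha7 and Nop56) and 0 changed direction. Nop56 is a ribosome biogenesis gene, and its log2 change of 1.12 was 1.03 with library totals alone (adjusted p = 0.503, edgeR), and it was also lost by DESeq2, by limma-voom, without GS replicate 3 and without RCF replicate 1 (adjusted p = 0.0619 to 0.141). Of 36 list counts, 3 moved by more than 1.5 times, those of lower Eph, Hedgehog and patterning genes. Genes with a mean under 1 CPM have few counts at this depth, and 51% of those tested were called, against 71.3% of all tested genes.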
